A study of Mus musculus with 15 samples.

Results

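The 9 genes described here encode G protein-coupled receptors through which hormones, nutrients and nerves act on islet hormone secretion. They are Glp1r, Gipr, Gcgr, Ffar1, Ffar4, Adra2a, Chrm3, Galr1 and Sstr3, chosen by name out of 21938 protein-coding genes on chromosomes 1 to 19, X and Y. For each gene, peaks of 2 histone marks were collected at the promoter, taken as 1000 bp either side of the annotated gene start, and in a gene window that extended 20 kb beyond both ends of the gene. The marks were H3K27Ac, acetylation of histone H3 at active promoters and enhancers, and H3K27Me3, methylation of the same residue in chromatin silenced by Polycomb proteins.

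Islets were isolated at 20 weeks of age from male mice of the CBA strain that from 10 weeks of age were fed a regular diet (RD), a high-fat diet (HFD) or the high-fat diet formulated with O304 (HFD-O304), an activator of the kinase AMPK. The labels name no transgene or deletion, and RD was the only group without high-fat food. The labels list 12 ChIP samples, 2 for each mark and diet, plus 3 input samples, and about 600 pooled islets entered a ChIP. The authors merged the 2 replicates before calling peaks, so that each mark and diet is represented by 1 list and no spread between replicates exists for any value below.

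Receptors of this class pass a signal from outside the cell to a heterotrimeric G protein. GLP-1, GIP and glucagon receptors couple to Gs, raise cAMP and amplify glucose-stimulated insulin secretion, while FFAR1 and the muscarinic receptor CHRM3 act mainly through Gq and phospholipase C. The adrenergic, galanin and somatostatin receptors ADRA2A, GALR1 and SSTR3 couple to Gi and restrain secretion.

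Height is given throughout as a ratio, the mean pileup of fragments over a peak divided by the pileup that evenly spread fragments would give. A ratio of 1 would be no enrichment. The H3K27Ac lists rested on 83773042 to 95218072 kept fragments and the H3K27Me3 lists on 54166902 to 74870300. The lowest ratio in a list was 2.40, 2.26 and 2.37 for H3K27Ac on RD, HFD and HFD-O304, and 2.74, 3.10 and 2.97 for H3K27Me3, so that a gene without a peak may still carry signal below these limits. Intervals in parentheses are exact 95% Poisson intervals on the fragments estimated in a peak. They cover counting error only and say nothing of variation between mice.

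Markers of the endocrine islet carried H3K27Ac at 7, 8 and 7 of 12 promoters on RD, HFD and HFD-O304. These were 58.3%, 66.7% and 58.3%, against 44.1%, 49.9% and 49.4% of all protein-coding genes. Pdx1, Nkx6-1, Nkx2-2, Mafa, Isl1 and Pax6 had the peak in all 3 diets. Gcg, Sst and Ppy, hormones of the alpha, delta and PP cells, had no H3K27Ac peak at any annotated start in any diet. Ins2 had one at a start inside the gene in each diet (ratios 2.81, 2.75 and 2.75). Ins1 had a promoter peak on RD (2.86) and HFD (3.12) and none on HFD-O304. Neurod1 had one on HFD (2.73) and HFD-O304 (2.91) and none on RD. Of the 7 acinar markers in the annotation 1 (Bhlha15) had H3K27Ac, in each diet. None of the 4 endothelial and none of the 4 leukocyte markers had an H3K27Ac promoter peak. In pooled islets a smaller share of cells carrying a mark and a lower level of the mark per cell cannot be told apart.

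RefSeq promoters of GRCm38.p6, 250 bases before to 50 bases after a start, were at hand for 7 of the 9 receptors in 8 windows. Shown here are Glp1r, whose start was the only one under both marks, Ffar4, where H3K27Ac was called under both high-fat diets and not on RD, Adra2a, the receptor with the highest H3K27Ac ratio in each diet, and Chrm3, whose HFD-O304 peak stopped short of the start. Capitals mark CpG, and each sequence runs 5′ to 3′ along its gene. Glp1r lies at chr17:30901617-30901916 (plus strand), Ffar4 at chr19:38096829-38097128 (plus strand), Adra2a at chr19:54045009-54045308 (plus strand) and Chrm3 at chr13:10360754-10361053 (minus strand).
Glp1r: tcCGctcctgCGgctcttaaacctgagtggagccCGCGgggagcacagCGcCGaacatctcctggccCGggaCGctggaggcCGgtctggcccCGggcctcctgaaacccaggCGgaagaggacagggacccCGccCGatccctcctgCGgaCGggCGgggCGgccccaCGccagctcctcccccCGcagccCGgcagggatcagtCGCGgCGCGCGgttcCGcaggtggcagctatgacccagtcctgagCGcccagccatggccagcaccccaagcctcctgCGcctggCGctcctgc
Ffar4: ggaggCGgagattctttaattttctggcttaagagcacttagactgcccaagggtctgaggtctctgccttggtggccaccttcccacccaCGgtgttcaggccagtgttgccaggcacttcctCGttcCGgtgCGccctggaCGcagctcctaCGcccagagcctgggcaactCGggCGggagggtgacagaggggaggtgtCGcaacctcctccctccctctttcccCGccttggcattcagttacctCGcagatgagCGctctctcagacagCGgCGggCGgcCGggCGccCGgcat
Adra2a: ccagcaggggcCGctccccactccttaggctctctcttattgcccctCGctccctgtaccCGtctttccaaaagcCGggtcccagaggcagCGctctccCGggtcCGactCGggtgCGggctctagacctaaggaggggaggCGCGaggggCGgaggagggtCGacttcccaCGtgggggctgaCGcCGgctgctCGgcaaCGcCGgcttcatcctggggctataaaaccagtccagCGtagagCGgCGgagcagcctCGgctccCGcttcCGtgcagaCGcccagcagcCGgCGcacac
Chrm3: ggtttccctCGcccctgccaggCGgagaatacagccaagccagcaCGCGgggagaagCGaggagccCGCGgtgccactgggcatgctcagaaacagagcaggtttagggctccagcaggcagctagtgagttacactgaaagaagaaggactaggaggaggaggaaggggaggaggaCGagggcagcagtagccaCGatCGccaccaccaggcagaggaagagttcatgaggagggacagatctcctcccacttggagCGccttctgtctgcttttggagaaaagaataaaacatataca

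The Glp1r window held 29 CpG and was 73.7% GC, that of Adra2a held 28 CpG, that of Ffar4 19 and that of Chrm3 11. The median over 32841 RefSeq windows was 7 CpG, and the receptor windows ranged from 1 at a second start of Sstr3 to 34 at Gcgr. The GC box GGGCGG was found, on either strand, in 4 of the 8 windows (Glp1r, Gcgr, Ffar4 and Adra2a) against 35.7% of all windows. The palindromic cAMP response element TGACGTCA was in 0 of 8 against 1.79%, and its shorter part TGACG, counted also inside the full element, in 2 of 8 (Adra2a and Sstr3) against 20.8%. The E-box CAGATG was in 3 of 8 (Ffar1, Ffar4 and Sstr3) against 17.2%, and TATAAA in 1 of 8 (Adra2a) against 13.6%. These are matches of letters in 300 bases and not measured binding sites.

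H3K27Ac was called at the promoter of 7 receptors on RD and of all 9 on HFD and on HFD-O304. Among all protein-coding genes the share was 44.1% on RD, 49.9% on HFD and 49.4% on HFD-O304. The 7 receptors of RD (Glp1r, Gcgr, Ffar1, Adra2a, Chrm3, Galr1 and Sstr3) had the peak in all 3 diets, which held for 42.5% of genes. Gipr and Ffar4 had it on HFD and HFD-O304 but not on RD, a class of 4.50% of genes. The counts fell to 3, 5 and 4 receptors with a minimum −log10 q of 5. The share of all genes at that stricter limit was not computed, so these counts cannot be set against the shares above.

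H3K27Me3 was called at the promoter of Glp1r alone on RD and on HFD (11.1% of the 9 in each), and at 0 of the 9 on HFD-O304. The shares of all genes were 6.63%, 8.46% and 8.88%, and counts of 1 or 0 in 9 are near this background. Glp1r was therefore the 1 receptor of the 9 with both marks at its start on RD and HFD, and 0 of 9 had both on HFD-O304. The shares of all genes with both were 1.75%, 2.84% and 2.39%.

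**Figure D1:**
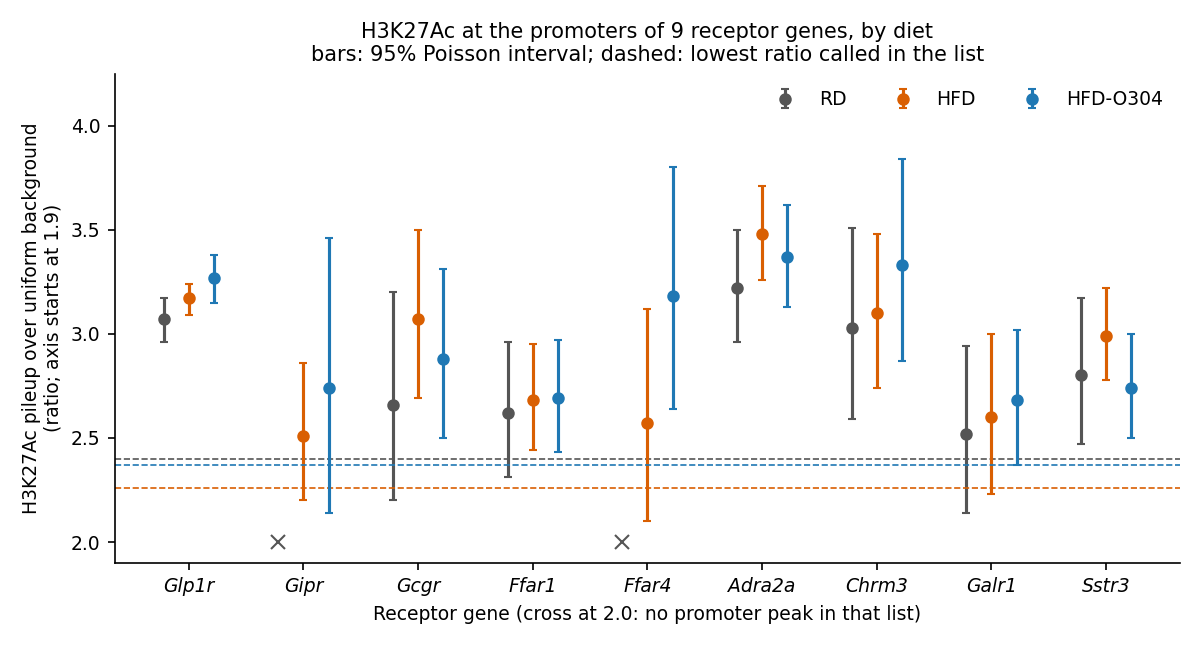
H3K27Ac pileup over uniform background (y axis, ratio, starting at 1.9) at the promoters of the 9 receptors (x axis) on RD, HFD and HFD-O304, with 95% Poisson intervals as bars, the lowest ratio of each list as dashed lines and crosses at 2.0 where no peak was called. Adra2a is highest in each diet, Gipr and Ffar4 have no RD peak, and the intervals of the diets overlap at every receptor with peaks in more than 1 diet.

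Glp1r encodes the receptor for the incretin GLP-1 and is the target of a class of antidiabetic drugs. The gene (ENSMUSG00000024027.8) spans bases 30901817 to 30940791 of chromosome 17 (GRCm38, plus strand). It stood apart from the other receptors by the length of its H3K27Ac. On RD the mark formed 2 peaks, one of 14864 bp upstream (ratio 3.29, 3.15 to 3.43) and one of 22966 bp that ran from −1223 to 21742 bp relative to the start (ratio 3.07, 2.96 to 3.17). HFD had a single peak of 42340 bp with a ratio of 3.17 (3.09 to 3.24). HFD-O304 had 3 peaks, of 17703 bp (ratio 3.54), 21429 bp (ratio 3.27, 3.15 to 3.38) and 1140 bp (ratio 2.54).

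Outer borders of this acetylated stretch were close between the diets, at −19079, −20635 and −20894 bp from the start on its upstream side and at 21742, 21704 and 21722 bp on the other (RD, HFD and HFD-O304). Within them H3K27Ac peaks covered 37.8 kb, 42.3 kb and 40.3 kb. The differing number of peaks came from gaps of 2992 bp on RD and of 1085 and 1260 bp on HFD-O304. The stretch held an estimated 5343, 6831 and 6139 fragments, which was 63.8, 71.7 and 72.5 per 1000000 fragments kept. HFD was thus highest before this scaling and HFD-O304 after it, and RD was lowest in both. Only 10 of the 21674 H3K27Ac peaks of HFD were longer than the Glp1r peak, and 5 of those 10 touched a promoter. On RD 21 of 16314 peaks exceeded the promoter peak of Glp1r in length, and on HFD-O304 23 of 20305. Peaks of both marks were called against a uniform background without input, and the copy number of this stretch was not tested.

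Inside the same stretch lay H3K27Me3 peaks, 7 on RD, 2 on HFD and 3 on HFD-O304, and each of the 12 overlapped H3K27Ac of its diet. The strongest, from about 6 to 5 kb upstream of the start, was called in every diet, with ratios of 4.53 on RD (1598 bp), 4.32 on HFD (1247 bp) and 4.13 on HFD-O304 (1396 bp) and without repeat-masked bases (0%). The peak over the start had a ratio of 3.71 (3.30 to 4.15) over 2035 bp on RD and of 3.41 (2.84 to 4.05) over 1306 bp on HFD. An intronic peak near 16 kb inside the gene was called on RD (ratio 2.90) and HFD-O304 (ratio 3.44).

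The H3K27Me3 list of RD reached lower ratios than the others. At the common limit of 3.10, the lowest ratio of HFD, the stretch held 4 peaks on RD, 2 on HFD and 2 on HFD-O304. The promoter peak of HFD did not reach a −log10 q of 5 (3.23), whereas that of RD did (6.65). Whether both marks lay on the same nucleosomes or in different cells was not tested.

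**Figure D2:**
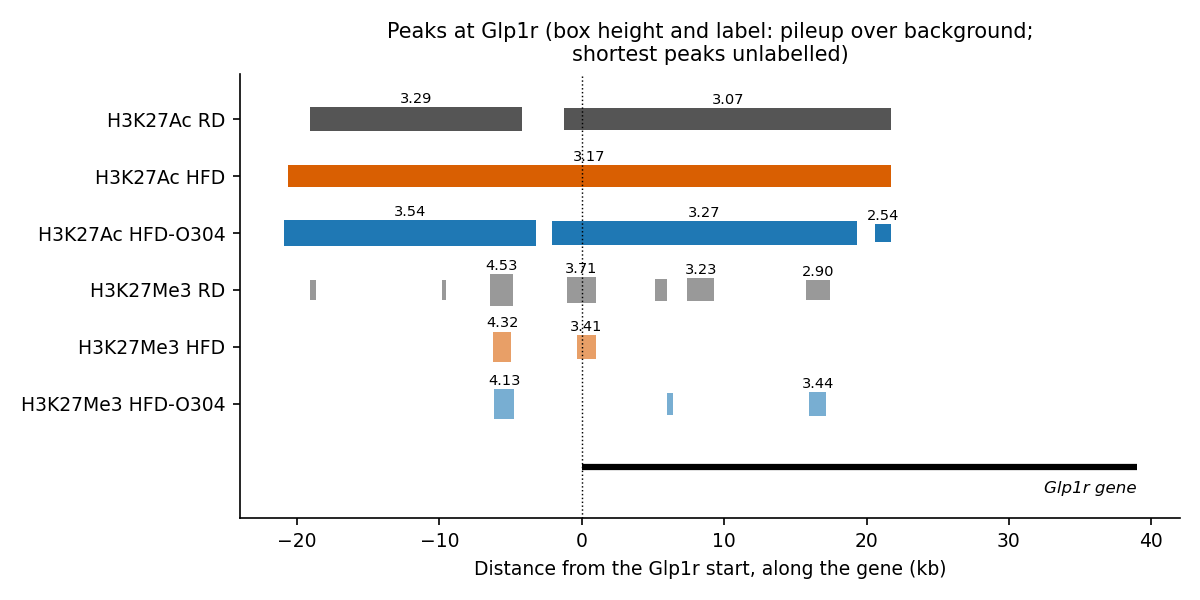
Peaks of H3K27Ac and H3K27Me3 at Glp1r in each diet (rows), by distance from the gene start along the gene (x axis, kb). Box height and labels give the pileup over background, and the shortest peaks carry no label. H3K27Ac spans about 40 kb around the start in each diet, and the H3K27Me3 peak with the highest ratio (4.53, 4.32 and 4.13) lies upstream of the start in all 3.

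Gipr encodes the receptor for the other incretin, GIP (ENSMUSG00000030406.7, chromosome 7, 19156061 to 19166127, minus strand). Its promoter had no H3K27Ac peak on RD, a peak of 1794 bp on HFD with a ratio of 2.51 (2.20 to 2.86) and one of 567 bp on HFD-O304 with a ratio of 2.74 (2.14 to 3.46). Both lay close to the limit of their lists, on an estimated 229 and 70.3 fragments. The neighbourhood was acetylated in every diet. About 6 kb upstream of the start a peak had ratios of 2.47 on RD, 2.42 on HFD and 2.66 on HFD-O304. A further peak beyond the other end of the gene, at the promoters of Qpctl and Snrpd2, had ratios of 2.85, 2.82 and 3.14.

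Gcgr encodes the glucagon receptor (ENSMUSG00000025127.15, chromosome 11, 120530699 to 120538986, plus strand). H3K27Ac at its start had a ratio of 2.66 (2.20 to 3.20) over 948 bp on RD, 3.07 (2.69 to 3.50) over 1463 bp on HFD and 2.88 (2.50 to 3.31) over 1552 bp on HFD-O304. At the 3′ end of the gene a second peak of 2283 to 2430 bp was called in every diet, with ratios of 2.78, 2.90 and 2.95. Its width exceeded that of the promoter peak in each diet. The promoters of Mcrip1 and Ppp1r27 beyond it carried a stronger peak (ratios 3.25, 3.78 and 3.76). H3K27Me3 had no peak in the windows of Gipr and Gcgr.

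Ffar1 (GPR40), a receptor for long-chain fatty acids in beta cells, has its gene on chromosome 7 (ENSMUSG00000044453.5, 30857390 to 30861564, minus strand). Its promoter peak was nearly level in height and differed in width. Ratios were 2.62 (2.31 to 2.96) on RD, 2.68 (2.44 to 2.95) on HFD and 2.69 (2.43 to 2.97) on HFD-O304, over 2169, 3147 and 3154 bp. The peaks of HFD and HFD-O304 were each 1.45-fold longer than that of RD, and fragments in the peak per 1000000 kept differed from RD by log2 0.57 and 0.58.

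Ffar4 (GPR120), a second receptor for long-chain fatty acids, has its gene on chromosome 19 (ENSMUSG00000054200.7, 38097071 to 38114263, plus strand). No promoter peak was called on RD. On HFD the peak measured 791 bp with a ratio of 2.57 (2.10 to 3.12), and on HFD-O304 840 bp with a ratio of 3.18 (2.64 to 3.80). Between these diets the log2 ratio was 0.30 (−0.07 to 0.68), the largest of the receptors in size and still within counting error. Another HFD peak of 402 bp lay 5 kb upstream (ratio 3.06, −log10 q 6.75), and neither RD nor HFD-O304 had one there. Its neighbour Rbp4, which encodes the retinol carrier of plasma, had H3K27Ac at the promoter in every diet (3.29, 3.21 and 3.52). The sole H3K27Me3 peak of the window, intronic and on HFD-O304, was 261 bp long and 95.4% repeat-masked.

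Chrm3 encodes the M3 muscarinic receptor, through which acetylcholine enhances insulin secretion (ENSMUSG00000046159.16, chromosome 13, 9875486 to 10360847, minus strand). Promoter H3K27Ac had a ratio of 3.03 (2.59 to 3.51) on RD, 3.10 (2.74 to 3.48) on HFD and 3.33 (2.87 to 3.84) on HFD-O304. On RD and HFD the peak spanned the start, whereas on HFD-O304 it began 155 bp inside the gene and so left the RefSeq window printed above uncovered. The gene is 485362 bp long, yet outside the promoter a single place was called in all diets. This place, 181 kb inside the gene in an intron, carried both marks in each diet (H3K27Ac 4.23, 3.73 and 3.75; H3K27Me3 2.92, 4.03 and 3.35) and consisted entirely (100%) of repeat-masked sequence. Placement of reads in such sequence was not tested.

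Adra2a encodes the alpha2A adrenoceptor, through which adrenaline and noradrenaline inhibit insulin release (ENSMUSG00000033717.6, chromosome 19, 54044151 to 54048982, plus strand). It had the highest H3K27Ac ratio of the 9 promoters in each diet, at 3.22 (2.96 to 3.50) on RD, 3.48 (3.26 to 3.71) on HFD and 3.37 (3.13 to 3.62) on HFD-O304. The peaks were 3838, 5278 and 4903 bp long, second in length to Glp1r. They began 517, 415 and 379 bp downstream of the GENCODE start and covered the RefSeq start, which lies 1108 bp further into the gene than the former. Among the 9, Glp1r and Chrm3 came next on RD, on HFD and on HFD-O304, and their intervals overlapped that of Adra2a except for Glp1r on HFD.

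Galr1 encodes a receptor for galanin, a neuropeptide that inhibits insulin secretion (ENSMUSG00000024553.8, chromosome 18, 82392380 to 82406777, minus strand). Its ratios were among the lowest, at 2.52 (2.14 to 2.94) on RD, 2.60 (2.23 to 3.0) on HFD and 2.68 (2.37 to 3.02) on HFD-O304. The peak was 1415 bp long on RD, 1392 bp on HFD and 2218 bp on HFD-O304. No other place in the Galr1 window was called in more than 1 diet.

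Sstr3 encodes a somatostatin receptor found on primary cilia (ENSMUSG00000044933.3, chromosome 15, 78537008 to 78544685, minus strand). H3K27Ac at its start had a ratio of 2.80 (2.47 to 3.17) over 1997 bp on RD, 2.99 (2.78 to 3.22) over 4810 bp on HFD and 2.74 (2.50 to 3.0) over 3806 bp on HFD-O304. The height thus differed less than the width. The HFD peak alone reached the second RefSeq start, 3279 bp inside the gene. Downstream of Sstr3 a peak 15 kb from the start was called in every diet (2.52, 2.61 and 2.65), as was the promoter of C1qtnf6 (2.73, 2.64 and 2.59). Adra2a, Galr1, Sstr3 and Ffar1 had no H3K27Me3 peak in their windows.

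**Figure D3:**
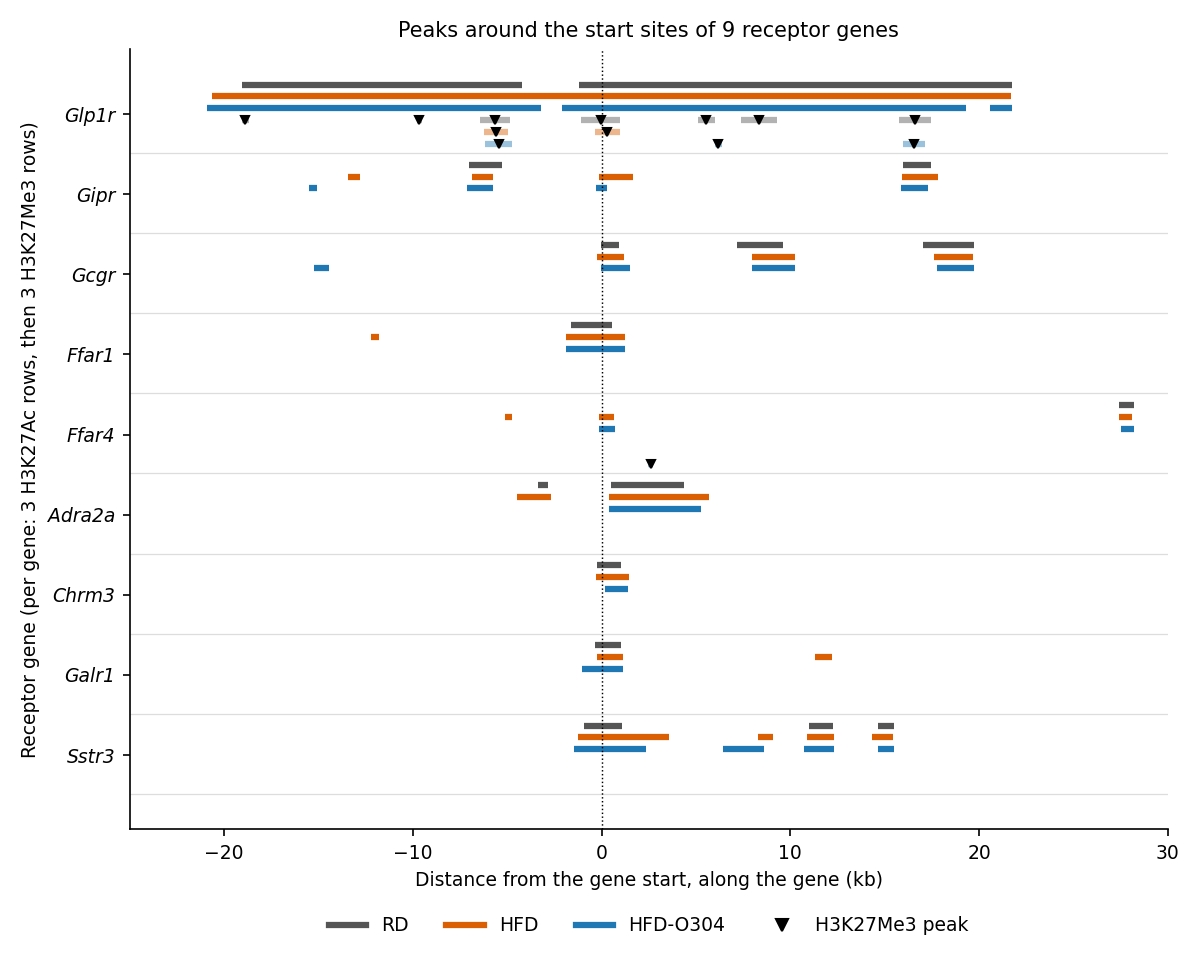
Positions of H3K27Ac peaks (solid bars, upper 3 rows of each gene) and H3K27Me3 peaks (pale bars with triangles, lower 3 rows) from 25 kb before to 30 kb after the start of each receptor gene (x axis, kb along the gene), coloured by diet. Glp1r has H3K27Ac over about 40 kb and 12 H3K27Me3 peaks, whereas the other 8 have H3K27Ac peaks of at most 5278 bp and, in this range, 1 H3K27Me3 peak (Ffar4); the repeat peak of Chrm3 lies outside the range.

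In the gene windows H3K27Ac was called in the window of all 9 receptors in each diet, against 63.4%, 69.5% and 68.0% of genes on RD, HFD and HFD-O304. H3K27Me3 was called in 2 windows on RD (Glp1r and Chrm3), the same 2 on HFD and 3 on HFD-O304 (with Ffar4), against 29.9%, 30.6% and 36.4% of genes, which is near the background in each diet. Peaks numbered 17, 25 and 23 for H3K27Ac, of which 4 in each diet lay at promoters of neighbouring genes, and 8, 3 and 5 for H3K27Me3. Per 100 kb of window, the receptors had a median of 2.53, 4.53 and 3.50 H3K27Ac peaks, against 1.30, 1.67 and 1.60 over all genes. For H3K27Me3 both medians were 0 in each diet. All 8 and 3 H3K27Me3 peaks on RD and HFD, and 4 of the 5 on HFD-O304, overlapped H3K27Ac. Of these overlapping peaks 7, 2 and 3 lay in the acetylated stretch of Glp1r. The remaining 1 in each diet was the repeat-masked place in Chrm3, so the counts describe 2 genes and not the receptors as a set. Over all H3K27Me3 peaks of these lists the share that overlapped H3K27Ac was 19.9%, 29.2% and 15.9%.

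Height of the receptor promoters was next set beside that of every promoter with H3K27Ac. Medians of the receptors were 2.80 on RD, 2.99 on HFD and 2.88 on HFD-O304, below the medians of 3.17, 3.27 and 3.30 over 9674, 10942 and 10834 genes. A single receptor exceeded the median of all genes on RD and on HFD (Adra2a), and 2 did on HFD-O304 (Adra2a and Chrm3). Peaks of the receptors were long, in contrast. Their median lengths were 1997, 1794 and 2218 bp, against 966, 1086 and 1062 bp for all genes, and 6 of 7, 8 of 9 and 7 of 9 receptors were above the median of all genes. GC content around the gene starts was also somewhat higher in the receptors (median 56.4% against 51.2%), at a similar ratio of observed to expected CpG (0.46 against 0.47). These comparisons describe 1 list per diet and were not tested.

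**Figure D4:**
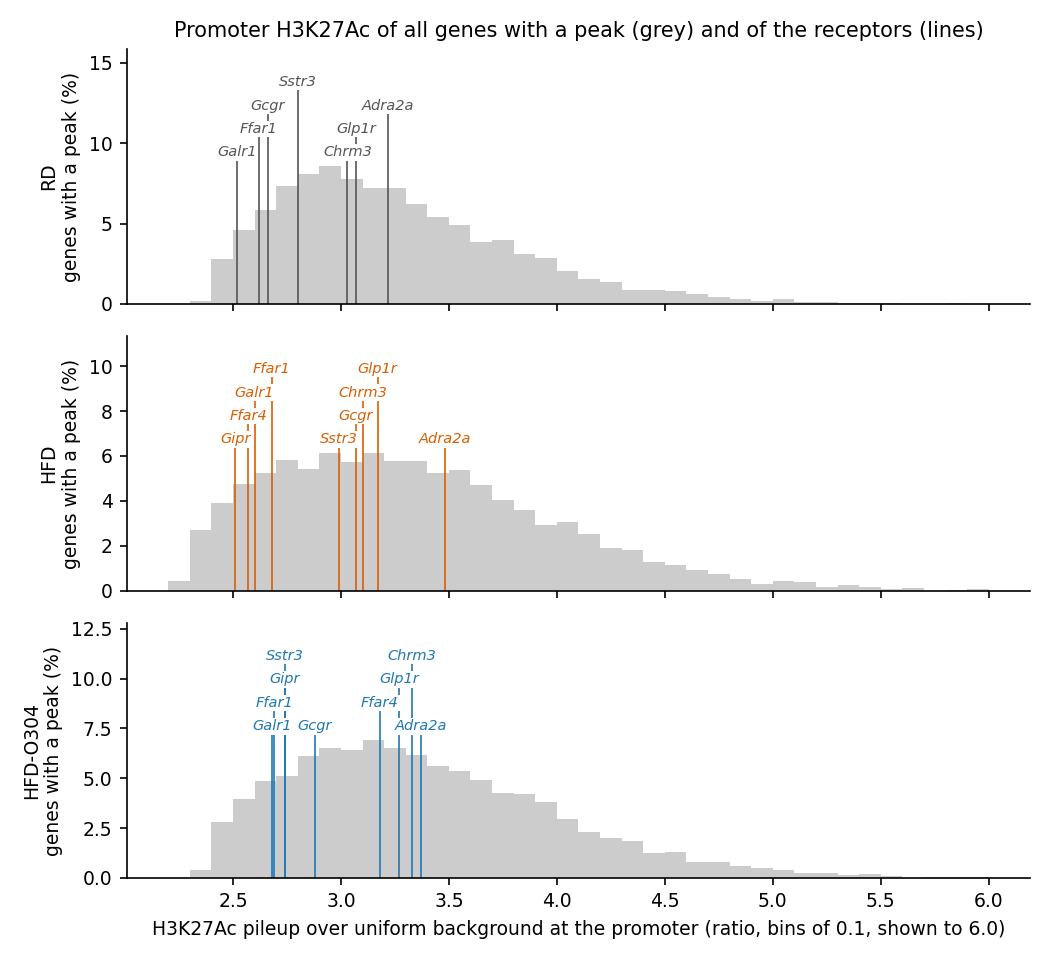
Share of genes with an H3K27Ac promoter peak (y axis, percent) by pileup over background in bins of 0.1 (x axis, shown to 6.0) for RD, HFD and HFD-O304, with coloured lines at the values of the receptors. Most receptors sit left of the middle of the grey distribution, with Adra2a the farthest right in each diet at 3.22, 3.48 and 3.37.

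Differences between diets in height were small. From RD to HFD the ratio was higher in 7 of the 7 receptors with a peak in both, against 66.5% of 9492 genes, with log2 differences from 0.03 (Ffar1 and Chrm3) to 0.21 (Gcgr, −0.12 to 0.53). Every one of these 7 intervals included 0. The median difference was 0.05 in the receptors and 0.07 in all genes. HFD-O304 exceeded RD in 6 of 7 receptors, all but Sstr3 (−0.03, −0.25 to 0.19), against 71.1% of genes, and it exceeded HFD in 6 of 9 against 55.4%.

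Only 1 of the 23 log2 differences in H3K27Ac height lay beyond counting error, that of Glp1r from RD to HFD-O304 at 0.09 (0.02 to 0.16), which equals 1.07-fold. The median of all genes in this comparison was 0.08, with 5th and 95th percentiles of −0.18 and 0.36. When fragments in the promoter peak, scaled to the kept total, were compared instead, the difference was −0.01, with a Glp1r peak of 21429 bp on HFD-O304 and of 22966 bp on RD. This value depends on where the acetylated stretch was divided into peaks. Over the whole stretch HFD-O304 had more fragments per 1000000 kept than RD (72.5 against 63.8).

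Width differed more than height. Height is a mean over the called peak and cannot fall below the lowest ratio of its list, so height and width are not independent measures. Promoter peaks were longer on HFD than on RD at 6 of 7 receptors, with a median of 1.45-fold in the receptors and 1.12-fold in all genes, of which 71.0% were longer. Sstr3 had the largest factor (2.41-fold), then Glp1r (1.84-fold) and Gcgr (1.54-fold), whereas Galr1 was level (0.98-fold). The value of Glp1r reflects the joining of neighbouring peaks across 2992 bp. On HFD-O304 5 of the 7 peaks were longer than on RD (median 1.45-fold, 1.10-fold in all genes), against 67.1% of all genes. Only 4 of 9 were longer than on HFD (median 0.93-fold, 0.98-fold in all genes), against 46.0% of all genes. Both counts were near the background. The H3K27Ac lists kept 83773042 fragments on RD, 95218072 on HFD and 84694188 on HFD-O304. The deeper list of HFD could call lower signal at the edges of a peak, and the part of depth in the HFD widths was not tested.

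Other receptors of islet cells were covered by a list of 36 genes. H3K27Ac was called at 11, 14 and 14 of their promoters on RD, HFD and HFD-O304, or 30.6%, 38.9% and 38.9%, and H3K27Me3 at 4, 11 and 12, or 11.1%, 30.6% and 33.3%, beside the shares of all genes given above. The highest mean H3K27Ac ratios belonged to Vipr1 (3.26), a receptor for VIP and PACAP, Adora2a (3.25), an adenosine receptor, P2ry1 (3.22), Lpar1 (3.22) and the calcium-sensing receptor Casr (2.92). H3K27Me3 in all 3 diets was found at the somatostatin receptor Sstr5 (2.87, 3.64 and 3.89), the PACAP receptor Adcyap1r1 (3.09, 3.29 and 3.79), the dopamine receptor Drd2 (2.80, 3.37 and 3.17) and the ghrelin receptor Ghsr (3.05, 3.37 and 3.23). Sstr3 thus had H3K27Ac and no H3K27Me3 at its promoter, and Sstr5 the reverse. Both marks in the same diet, as at Glp1r, were called at 3 of the 36 promoters. These were Cnr1 on HFD and HFD-O304, Htr1d on HFD and Drd2 on HFD-O304.

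Downstream of the receptors, 49 genes of G proteins, cAMP and phospholipase C signalling carried H3K27Me3 at 7, 9 and 9 promoters. These were 14.3%, 18.4% and 18.4%, against 6.63%, 8.46% and 8.88% of all genes. H3K27Ac was at 35, 37 and 36, or 71.4%, 75.5% and 73.5%, against 44.1%, 49.9% and 49.4% of all genes. The G protein subunit Gnb1 (mean ratio 4.65), the protein kinase A subunits Prkar1a (4.49) and Prkacb (4.10), the cAMP-responsive factor Crem (4.20) and Gna11 (3.86), a Gq-class subunit, were highest, all above the receptors themselves. H3K27Me3 was present in all 3 diets at the adenylyl cyclases Adcy1, Adcy2, Adcy5 and Adcy7, at Gnal and at the phosphodiesterase Pde4b. Gnal, a Gs-class subunit, also had H3K27Ac in each diet.

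A list of 12 genes held Gcg, Gip, Sst and Gal, which encode peptide ligands of receptors described here, Chat and Slc18a3, and other islet and neural peptides that act on different receptors (Adcyap1, Vip, Iapp, Npy, Pyy and Ppy). On RD 0 of them had promoter H3K27Ac, and 2 each did on HFD and HFD-O304 (Gal and Npy, ratios 2.37 to 2.59), or 16.7% against 49.9% and 49.4% of all genes. H3K27Me3 was at 4, 5 and 4 of them, or 33.3%, 41.7% and 33.3% against 6.63%, 8.46% and 8.88%. In every diet it was called at Gal, which encodes galanin, at Npy, and at Chat and Slc18a3, genes of acetylcholine synthesis and storage that share 1 peak. As a control for this mark, 6 developmental genes that islets do not use (Hoxa9, Hoxd10, Pax3, Tbx5, Gata4 and Myod1) had no H3K27Ac and carried H3K27Me3 at 4, 5 and 6 promoters.

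**Figure D5:**
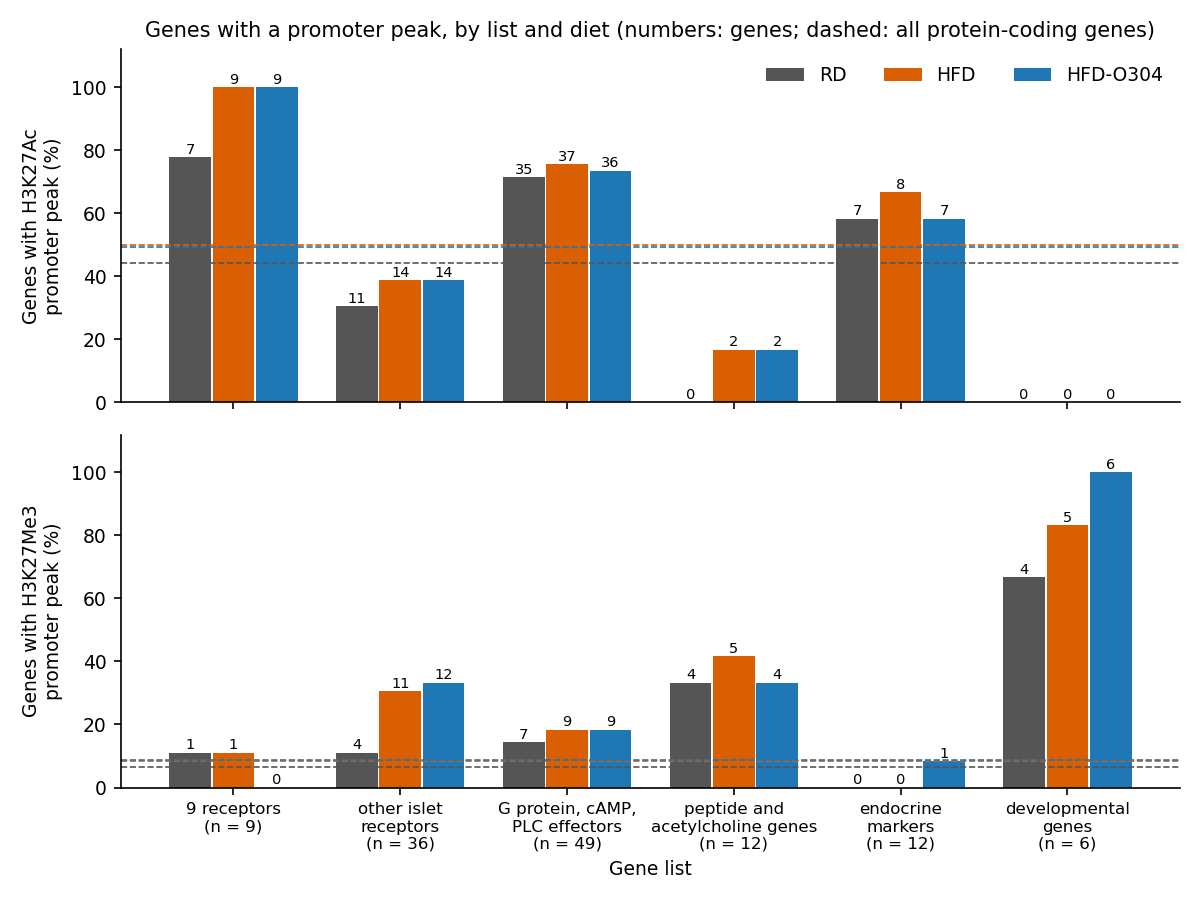
Percentage of genes with a promoter peak (y axis) of H3K27Ac (upper panel) and H3K27Me3 (lower panel) in 6 gene lists (x axis) by diet, with the number of genes above each bar and the share of all protein-coding genes as dashed lines. The 9 receptors have 7, 9 and 9 genes with H3K27Ac and 1, 1 and 0 with H3K27Me3, whereas the developmental genes have 0 with H3K27Ac.

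Genes whose 6 promoter ratios were nearest to those of a receptor were sought over all genes, by Euclidean distance of log2 ratios with absent peaks set to their list's lowest ratio. The genes nearest to Glp1r were Zfp772 (distance 0.206) and Hist1h2ap (0.216), which had peaks in the same 5 lists. The nearest gene of each of the other 8 receptors lay at 0.007 to 0.021. These 8 receptors had no H3K27Me3 promoter peak and so shared 3 tied values with most genes by construction. Their distances cannot be compared with those of Glp1r. The nearest pairs were Spns2 and Plekhg1 for Gipr, Adat1 and Erfe for Ffar4, and Relb and Mrps26 for Adra2a. They were also As3mt and Thap12 for Gcgr, Nmral1 and Fhl3 for Ffar1, Ubxn2b and Syde2 for Chrm3, Fam89a and Mis18a for Galr1, and 1700037C18Rik and Cluap1 for Sstr3. Unlike Galr1, Fam89a had an H3K27Me3 promoter peak on RD, with a ratio of 2.74 at the limit of that list. Distances of 0.007 to 0.021 are smaller than the intervals on single ratios.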

How the data were processed

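ChIP-seq for H3K27Ac and H3K27Me3 was performed by the authors on islets of mice on 3 diets (12 ChIP and 3 input samples). Per the labels and the study's methods, reads were mapped to GRCm38 with bowtie2 and the 2 replicates of each group were merged. Broad peaks were called with MACS 2.1.2, per the file headers on paired fragments with a q cutoff of 1.00e-02, an effective genome size of 1.87e+09, a uniform background and no control, so the inputs were not used. Merging leaves no replicate error, and a uniform background does not correct for copy number or mappability.

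The deposited lists give for each peak the pileup (coverage signal in fragments per base), the −log10 q, and a fold enrichment, the ratio of pileup plus 1 to background plus 1. Here the pileup was divided by kept fragments times fragment length over the genome size. Fragments in a peak were estimated as pileup times length over fragment length. Between 17.2% and 18.4% of H3K27Ac fragments and between 45.7% and 56.9% of H3K27Me3 fragments had been removed as duplicates.

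Genes and starts came from GENCODE mouse release 21, repeats from the GRCm38 reference and promoter sequences from RefSeq. Joins were written in Python 3.11.15 (pandas 2.3.3, scipy 1.17.1) and tested on simulated data. A gene had a peak when at least 1 bp overlapped. No test between diets was possible. All 9 receptors were named with every promoter peak and those window peaks that were called in 3 diets or had a −log10 q of at least 5, together with neighbours whose promoter held a peak of the window. From the lists, genes with H3K27Me3 in all diets and the 5 with the highest mean H3K27Ac were named, and the 2 nearest genes were found for each receptor. The intronic H3K27Me3 peak of Glp1r near 16 kb was added after its values were seen. The receptors, lists and alternatives were chosen with earlier results of these data known. The acinar marker Amy2b was not matched. The result of 1 marker list is not reported here.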

Additional observations from a re-analysis of the deposited data

How the results depend on the processing

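The 18 counts of receptors and peaks were recomputed under other windows, flanks, starts, peak limits, list sizes and repeat filters, which gave 126 values, of which 101 stayed within 1.5 times the reported count. Shares of all genes were not recomputed under these alternatives. A stricter −log10 q of at least 5, which removes peaks by construction, left promoter H3K27Ac at 3 receptors on RD, 5 on HFD and 4 on HFD-O304, and H3K27Me3 at 0 promoters on HFD. Windows with H3K27Ac on RD dropped to 5 and windows with H3K27Me3 on RD to 1. Peaks in the windows then numbered 7, 11 and 10 for H3K27Ac, and for H3K27Me3 2 on RD and 2 on HFD-O304. Flanks of 50 kb gave 30, 43 and 39 H3K27Ac peaks, H3K27Me3 in 4, 4 and 6 windows, and 7 and 11 H3K27Me3 peaks on HFD and HFD-O304. At a common limit of pileup over background H3K27Me3 on RD was left in 1 window with 4 peaks. Without peaks of at least 50% repeats, H3K27Me3 remained in 1 window on RD, HFD and HFD-O304 alike, with 3 peaks on HFD-O304. Between diets, 24 log2 differences kept to within their intervals when deposited folds were used. When fragments scaled to the kept total were compared, which adds the width of a peak, 6 stayed within their intervals and 17 moved beyond them. The remaining 1, Glp1r from RD to HFD-O304, also left its interval, which had excluded 0, and was reversed. Under this fragment measure 5 differences changed sign. From RD to HFD-O304 they were Glp1r (0.09 to −0.01) and Sstr3 (−0.03 to 0.90), and from HFD to HFD-O304 Gipr (0.13 to −1.54), Glp1r (0.04 to −0.94) and Chrm3 (0.10 to −0.42). No paired analysis was possible because each list pools both replicates of its group, and none could be left out. A length-weighted mean was the same as the highest peak, since each promoter held 1 peak. The number of fragments limits a typical receptor promoter most where few were estimated, as at Gipr on HFD-O304 (70.3).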
